A study of Mus musculus with 2 samples.

Results

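Mouse induced pluripotent stem cells in which the gene of the transcription factor SRF was deleted held a large group of cells with almost no mitochondrial RNA, and the RNA of these cells is described here. The members were the cells of the SRF knockout library with at least 1000 detected genes and under 1% of their unique molecular identifiers (UMIs, one for each captured RNA molecule) in genes of the mitochondrial genome. Cells with at least 10 UMIs summed over 8 endoderm genes (Gata6, Gata4, Sox17, Pdgfra, Dab2, Cubn, Lrp2 and Amn), or at least 5 over 3 fibroblast genes (Col1a2, Col3a1 and Acta2), were left out. This left 238 members among 2027 cells in both libraries. They made up 27.2% (exact 95% binomial interval 24.3 to 30.3) of the 875 knockout cells of up to 10% mitochondrial UMIs that passed the same limits, and the other 637, of 1 to 10%, are the comparison cells. Another 6 knockout cells under 1% were left out, all of them for endoderm UMIs, as were 116 cells of 1 to 10%.

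The study grew iPSCs, which are differentiated cells returned to pluripotency, in medium containing serum. Cells of the genotype SRFΔ/Δ are labelled KO and cells of the genotype SRFf/f, whose floxed gene was not recombined, are labelled WT. Each genotype was 1 library made on the 10x Genomics Chromium platform, and the labels give no clone or passage number. With 1 library per genotype nothing was tested, no p-value is given, and every interval is an exact 95% interval that covers counting error only. Since the cells were chosen on measured counts, all differences between members and comparison cells are descriptions.

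The mitochondrial genome encodes a small set of mRNAs, all for subunits of the respiratory chain and its ATP synthase, which are made and translated inside the organelle. All other mitochondrial proteins are encoded in the nucleus, translated mostly in the cytosol and imported. The remaining RNA of a cell also has its places: some long noncoding RNAs such as Malat1 stay in the nucleus, mRNAs of secreted and membrane proteins are translated at the endoplasmic reticulum (ER), and most others are translated on free cytosolic ribosomes.

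The knockout library held 1073 cells and 22277996 UMIs and the wild-type library 954 cells and 24005849 UMIs. Srf had 0 UMIs in the members, which allows up to 1.10 CPM (counts per 1000000) if 3 counts of the total are taken as the limit, and 3 UMIs in the comparison cells (0.197 CPM). In wild-type cells of 1 to 10% it had 202 UMIs (9.02 CPM). The libraries shared 2 cell barcodes, 1 of them that of a member. The members carried the pluripotency list at a median of 114.5 UMIs a cell, and 0 of 238 had none. In comparison cells that median was 287 UMIs. On both sides the summed markers of endoderm, fibroblasts, macrophages, neuroectoderm, mesoderm and trophectoderm had medians of 0 or 1 UMI. The endoderm and fibroblast lists hold the genes by which cells were left out, so their low sums were partly fixed by that choice. Scrublet, a doublet caller, marked 1 member and 0 comparison cells.

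A member held a median of 8556.5 UMIs (lowest 4511, highest 55706), against 24619 (4633 to 67619) in the comparison cells. The ranges overlapped almost completely, although most members were shallow. The mean of nuclear-encoded UMIs was 11423.7 a member and 23959.2 a comparison cell, a ratio of 0.477. Members had a median of 2078.5 detected genes and comparison cells 4281. After each cell was thinned to 4000 UMIs of nuclear-encoded genes, the medians were 1349 and 1480, and no cell of either side was shallower than that. Less RNA in a cell and poorer capture of the same RNA cannot be told apart in these counts. Levels below are therefore given as CPM of nuclear-encoded UMIs summed over cells, with the log2 ratio of members over comparison cells after 0.5 counts were added to each sum. Where UMIs per cell are given instead, a ratio of 0.477 marks a transcript that shrank with the total.

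The share of mitochondrial UMIs chose the cells, so its values only describe the choice. Its median was 0.144% in members (lowest 0, highest 0.99989) and 4.38% in comparison cells (1.01 to 9.94), and 2 members had no such UMI. The count of these UMIs had a median of 15.5 in members and 1073 in comparison cells. In the histogram, the knockout cells under 1% were spread broadly on the log axis, while the comparison cells formed a single peak. In the wild-type library 16 of 906 cells (1.77%, interval 1.01 to 2.85) lay under 1%.

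**Figure D1:**
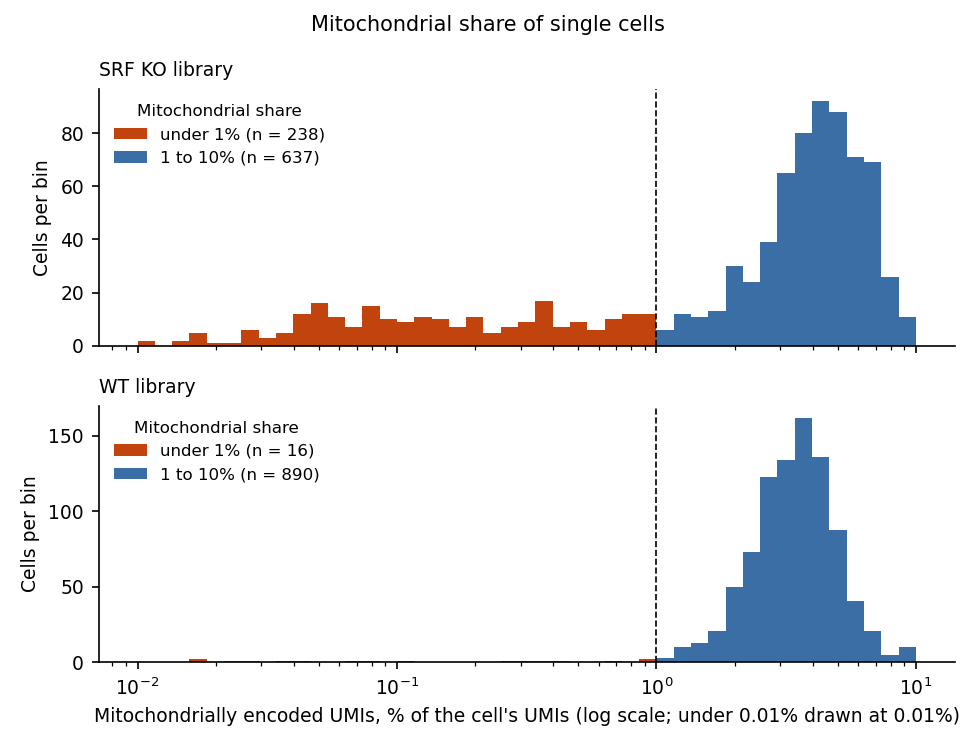
Number of cells (vertical axis) by the mitochondrial share of their UMIs in percent (horizontal, log scale), for the knockout library above and the wild-type library below, with the 1% limit as a dashed line. The 238 knockout cells under 1% form a broad low shelf, and the wild-type library has 16 such cells.

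All 13 mitochondrial mRNAs were low together. Mt-Co1, a core subunit of cytochrome c oxidase, had a median of 2 UMIs a member (0 to 95) and 198 a comparison cell (3 to 744). For mt-Co3, another subunit of that enzyme, the medians were 3 (0 to 106) and 165 (6 to 485). Both genes overlapped between the groups only at the low end of the comparison cells. The log2 ratios were -4.27 for mt-Co1 and -3.80 for mt-Co3. The subunits of complex I ran from -4.34 for mt-Nd3 to -2.38 for mt-Nd6, the 1 mRNA of the other strand, which rests on 6 and 189 UMIs. Between these lay mt-Nd4l (-4.19), mt-Nd2 (-4.07), mt-Nd4 (-3.95), mt-Nd5 (-3.65) and mt-Nd1 (-3.64). The oxidase subunit mt-Co2 stood at -4.15, the complex III subunit mt-Cytb at -3.98, and the ATP synthase subunits mt-Atp8 and mt-Atp6 at -3.96 and -3.95. Summed, a member had 0.0305 of the mitochondrial mRNA UMIs of a comparison cell.

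The cells on either side of the limit differed in depth. The 5 members closest to it had 0.939 to 0.99989% mitochondrial UMIs and 12173 to 55706 UMIs in all, with 92, 0, 140, 105 and 1777 Malat1 UMIs. The 5 comparison cells closest to it had 1.01 to 1.08% and only 4832 to 7115 UMIs, with 3, 1, 1, 1 and 1 Malat1 UMIs. So the limit did not fall at a gap in composition, and some comparison cells near it were as poor in Malat1 as most members.

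Malat1 is a long noncoding RNA kept in nuclear speckles. It has no ordinary poly(A) tail: its 3′ end is cut by RNase P and protected by a triple helix of U-rich motifs with a genomically encoded A-rich tract. The element is shown because Malat1 was abundant in the comparison cells and low in most members. It lies at chr19:5795978-5796072 on the minus strand (GRCm38, GENCODE M21), within the single exon of the noncoding transcript, bases 6601 to 6695 of 6983. Capitals mark both U-rich motifs, written with T, and the run of 12 A.
Malat1: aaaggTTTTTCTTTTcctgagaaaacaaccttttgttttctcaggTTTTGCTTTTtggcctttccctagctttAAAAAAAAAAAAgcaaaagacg

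Members held a median of 1 Malat1 UMI (lowest 0, highest 1777), and comparison cells held a median of 175 (0 to 1187). No Malat1 UMI was seen in 112 of 238 members (47.1%, interval 40.6 to 53.6) and in 38 of 637 comparison cells (5.97%, 4.26 to 8.10). At most 2 UMIs were seen in 197 members (82.8%) and 58 comparison cells (9.11%), and 27 of those 58 lay at 1 to 2% mitochondrial UMIs. After thinning to 4000 UMIs, 32.8% of members and 92.6% of comparison cells had a Malat1 UMI. Malat1 is made by nearly all cell types, so no cell type here gives its background, and the part of free RNA in these single UMIs was not tested.

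A few members were an exception. The 10 members richest in Malat1 held 3481 of the members' 3950 Malat1 UMIs (88.1%), and 9 members exceeded the lower quartile of the comparison cells' Malat1 level. The summed level was 1453 CPM in members and 9139 CPM in comparison cells, a log2 ratio of -2.65 (interval -2.70 to -2.61). Without those 10 members, an alternative chosen after the data were seen, the ratio was -5.58. When each cell weighed alike it was -3.79. The scatter of Malat1 against the mitochondrial share shows the few rich members as scattered points above a dense band near 0.

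**Figure D2:**
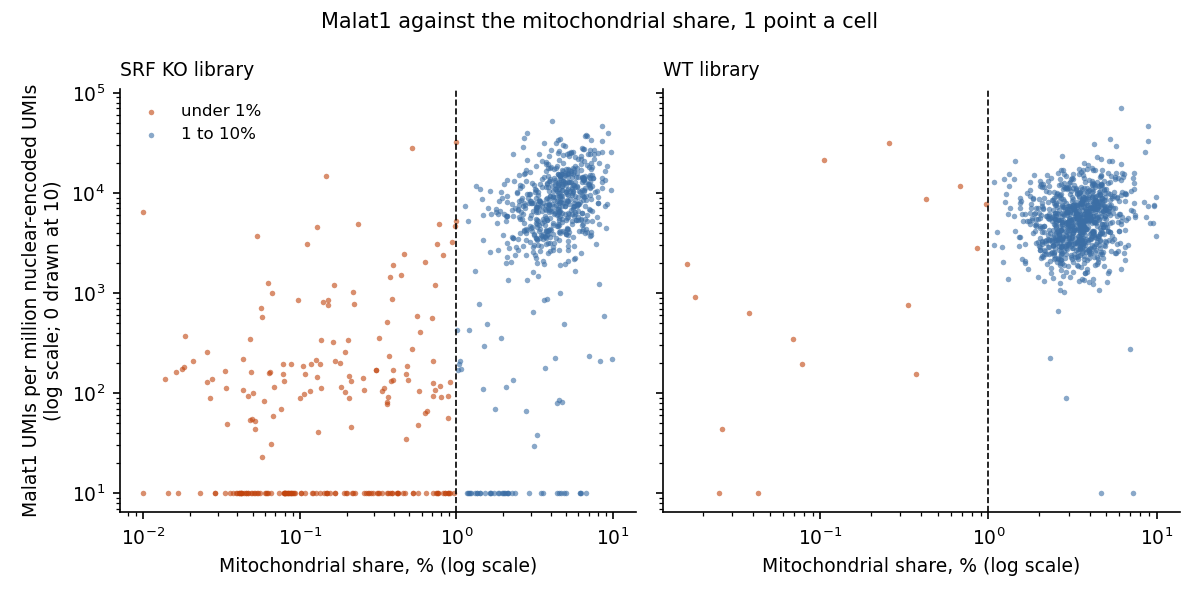
Malat1 level of each cell in CPM of nuclear-encoded UMIs (vertical, log scale, 0 drawn at 10) against its mitochondrial share in percent (horizontal, log scale), knockout library left and wild-type library right. Most knockout cells under 1% lie far below the cloud of cells of 1 to 10%, with 112 of 238 at 0, while 2 of 16 wild-type cells under 1% are at 0.

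The other nuclear-retained RNAs of the list were measured less well. Of 14 listed RNAs, 10 were in the matrix and 4 had at least 10 CPM, the minimum used for all list summaries (mean of both sides). Kcnq1ot1, the antisense RNA of an imprinted domain, had 13 UMIs in members and 920 in comparison cells, a log2 ratio of -3.60, which is uncertain because the counting of overlapping antisense genes is not given in the sources used here. Neat1, the scaffold of paraspeckles, had 10 and 533 (-3.18). Gm26917, a noncoding RNA on chromosome 17, was the least reduced, with 205 and 2603 UMIs (-1.17). Kcnq1ot1 and Neat1 passed the minimum only through the comparison cells, with 4.78 and 3.68 CPM in members, so their passing already required a difference. Of all 5983 genes of at least 10 CPM, 34% were at least 1.5 times lower, as were all 4 of these. The 6 RNAs under the minimum had at most 2 UMIs each in members. The list's sum came to 0.0778 of its UMIs per comparison cell.

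Noncoding transcripts whose introns carry small nucleolar RNAs were also lower, less strongly. Of 5 such hosts, 4 were at least 1.5 times lower, with a median of -0.86, from Snhg20 (-1.92) and Snhg12 (-1.40) to Snhg6 (-0.61) and Epb41l4aos (-0.49). Long intergenic noncoding RNAs as an annotated class had a median of -0.69 over 35 genes, 23 of them at least 1.5 times lower and 0 higher. Among all genes 34% were at least 1.5 times lower. Of 16 mRNAs known to keep introns and wait in the nucleus, 9 (56.25%) were at least 1.5 times lower (median -0.62). They included Rbm39 (-0.93) and Pnisr (-0.96), while the splicing factor Srsf7 stood at 0.41 and the helicase Ddx5 at 0.40, and 0 of the list reached a factor of 1.5 upward. The median was -0.31 in cells of 5000 to 15000 UMIs. The lowest gene of at least 50 CPM was the long intergenic RNA RP23-4H17.3 on chromosome 7, with 12 UMIs in members and 2028 in comparison cells (log2 ratio -4.85).

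Another group of RNAs without ordinary poly(A) tails is the replication-dependent histone mRNAs, which encode the histones of S phase and end in a stem-loop. The ends of 3 of them are shown, since Hist1h2ap, an H2A gene with 78.8% of the UMIs of the histone list in comparison cells and 46.5% in members, carries an encoded A run just before its stem-loop. The capitals mark the stem-loop letters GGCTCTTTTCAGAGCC, searched on the transcript strand in the last 100 bases of each coding transcript (GENCODE M21). Exactly these letters were found in 11 of 21562 coding genes (0.0510%), all 11 among 65 histone genes, and in 2 of them they follow directly on at least 8 A. The stretches lie in the 3′ ends at chr13:21833029-21833058 (minus strand), chr13:22043624-22043653 (plus) and chr13:23573765-23573794 (minus).
Hist1h2ap: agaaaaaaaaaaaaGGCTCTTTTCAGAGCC
Hist1h2bj: acaccaaatccaaaGGCTCTTTTCAGAGCC
Hist1h2bf: actcctaacccaaaGGCTCTTTTCAGAGCC

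Hist1h2ap had a median of 0 UMIs in members (lowest 0, highest 55; 164 of 238 at 0) and 17 in comparison cells (0 to 128). Its sums were 280 and 13100 UMIs, 103 and 858 CPM, a log2 ratio of -3.06 (interval -3.24 to -2.89). Its near-identical copies could have shared reads with it, and how such reads were counted is not given in the sources used here. Summed over the genes with the stem-loop letters the ratio was -3.01, on 294 and 13321 UMIs, so this sum is nearly Hist1h2ap alone. Over the 58 others, in which these exact letters were not found, it was -0.93. The 2 sums therefore do not compare classes of histone genes. The genes with stem-loop letters but no A run had 14 and 207 UMIs and a ratio of -1.35. Hist1h2bj, an H2B gene, had 6 and 52 UMIs, and Hist1h2bf, another, 0 and 32. By gene, only 3 of the list had at least 10 CPM, with a median of -0.45: besides Hist1h2ap these were Hist1h2bc, an H2B gene, at -0.45 and Hist1h4i, an H4 gene, at -0.35. Of 15 histone genes expressed outside S phase and HMG proteins, whose mRNAs are polyadenylated, 2 (13.3%) were at least 1.5 times higher and 2 (13.3%) lower. Over all genes the shares were 15.5% and 34%. The median of these 15 genes was 0.23, or -0.0040 in cells of 5000 to 15000 UMIs. The chromatin proteins Hmgb2 and Hmgb1 stood at 0.59 and 0.78.

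Over all 5983 genes the median log2 ratio was -0.12, and a median-of-ratios scaling put it at -0.00160. At least 2 times lower were 1470 genes (24.6%), and at least 2 times higher were 221 (3.69%). By a factor of 1.5, 2033 genes (34%) were lower and 928 (15.5%) higher. These shares are the ones to set beside each list count by that factor. The distribution had a long lower tail, with a 5th percentile of -2.50 and a 95th of 0.93. Within a factor of 1.5 lay 3022 genes (50.5%). The balance depended on the minimum level: among genes of at least 50 CPM, 204 were at least 2 times lower and 125 higher, and the median was 0.19. So among abundant genes the excess of lower ones was smaller, and the median turned to the other side.

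The named extremes differed in size of transcript. Among the 15 highest genes of at least 50 CPM were Kpna2 (1.52), an importin that carries proteins into the nucleus, Dppa2 (1.46), a chromatin protein of early embryos, and Rpf2 (1.42), a factor of ribosome assembly. Prdx1, a peroxidase of the cytosol, had a median of 33 UMIs in members (4 to 174) and 28 in comparison cells (1 to 131), and a ratio of 1.39 (interval 1.35 to 1.42), which was 0.66 in cells of 5000 to 15000 UMIs. Eif4a1, the helicase of translation initiation, had medians of 26 and 23 UMIs and a ratio of 1.33. Thus a member, with 0.477 of the nuclear-encoded UMIs, held about as many molecules of these mRNAs as a comparison cell. Med21, a Mediator subunit, stood highest (1.65), but 155 of its 413 UMIs came from 1 member. The other 9 were Mrpl39, Cbr1, Gsta4, Vbp1, Tuba1c, Psmc5, Rars, Hadh and Cct8, between 1.31 and 1.40. In cells of 5000 to 15000 UMIs, 6 of the 15 were still at least 2 times higher, and the 15 ranged from 0.66 to 1.68.

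At the other end stood RP23-4H17.3 and 14 coding genes, from Mid1 (-4.24), a microtubule-associated ubiquitin ligase, to Jarid2 (-3.01), a partner of Polycomb complex PRC2. Fn1, the extracellular matrix protein fibronectin, had a median of 0 UMIs in members (highest 4) and 4 in comparison cells (0 to 24), a ratio of -3.76. Slc2a3, a glucose transporter of the plasma membrane, had medians of 0 (highest 16) and 5 (highest 31), a ratio of -3.64. The adhesion protein gene Cdh1 had 24 and 1471 UMIs (-3.42) and was at 0 in 220 of 238 members. The group also held Scd2 (-3.63), a fatty acid desaturase of the ER, Akap12 (-3.51), a scaffold protein, Tet1 (-3.40), which oxidises methylcytosine, and Alkbh1, Ankrd11, Tmem245, Dtl, Hist1h2ap and Slc38a2, between -3.37 and -3.02. Apart from Hist1h2ap, the 15 lowest were under 50 CPM in members. They passed the minimum only through the comparison cells, so their passing already required a difference. Among the 15 highest, Med21, Kpna2, Mrpl39, Cbr1, Rars and Hadh passed only through the members. Of the 15 lowest, 12 had annotated transcripts above 3840 bases (median 4430 bases), and 0 of the 15 highest did (median 1789 bases). Among all 2227 coding genes of at least 50 CPM this held for 14.1%.

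Transcript length was also examined over all coding genes of at least 10 CPM (mean of both sides), with 1 annotated transcript a gene. The median log2 ratio was 0.15 for transcripts up to 1555 bases, 0.22 from 1556 to 2473, -0.24 from 2475 to 3840, and -1.30 for longer ones. Of the longest quartile 69.9% were at least 1.5 times lower, and of the shortest 11.4%. Across genes, which are not independent, Spearman's rho with length was -0.47. Coding length and the length after it both followed this. Within the longest quartile of coding sequences the median ran from -0.43 with the shortest 3′ untranslated regions to -1.66 with the longest. Within the shortest quartile of coding sequences it stayed between -0.03 and 0.13. The GC content of the transcript showed no such slope (rho -0.02). Length is not separated here from the level of expression, on which the balance of lower and higher genes also depended. Low genes could pass the minimum of 10 CPM through the comparison cells alone. Both limits also hold for the protein segments below.

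Messages of proteins that enter the ER or a membrane were lower as well. A hydrophobic segment was counted where the mean Kyte-Doolittle hydropathy over 19 residues of the translated coding sequence exceeded 1.6, as in signal peptides and membrane spans. The median was 0.01 for 4500 genes with none, -0.56 for 860 with one only after the first 60 residues, -0.71 for 252 with one only within them, and -1.03 for 285 with both. The order with none highest and both lowest held in each length quartile. Among the shortest transcripts the medians were 0.22 with none and -0.65 with both, and among the longest -1.18 and -2.43. In the plot of length and segment, the 2 features are seen to shift the medians in the same direction.

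**Figure D3:**
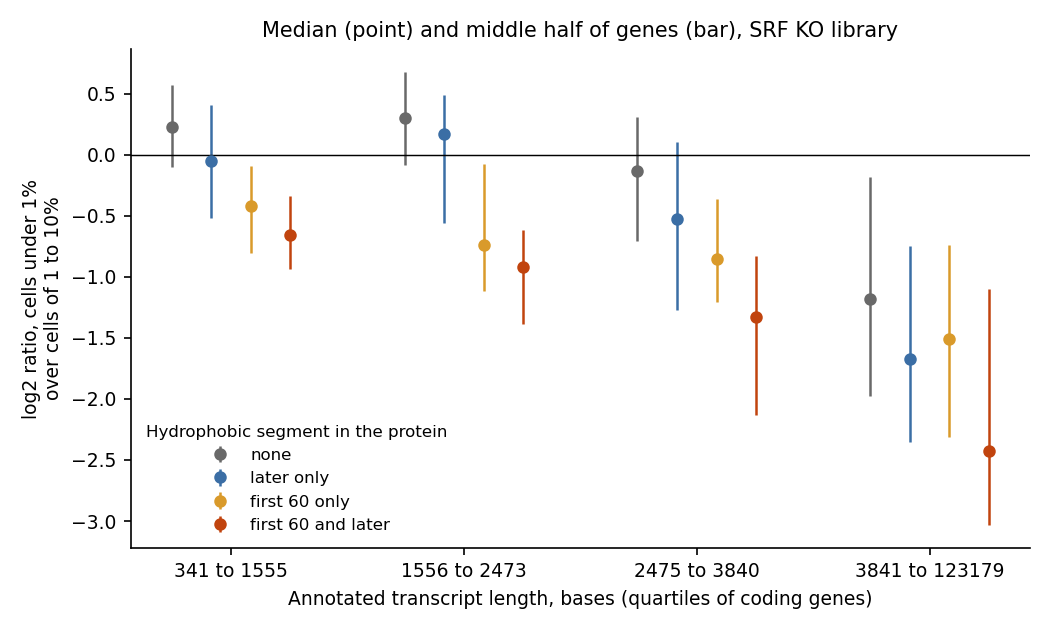
Median log2 ratio of members over comparison cells (points; bars span the 25th to 75th percentiles of genes) by quartile of annotated transcript length in bases (horizontal), for coding genes without a hydrophobic segment in the protein, with one after residue 60, within the first 60, or both. Medians are lowest in the longest quartile and, within each quartile, lowest with both, from -0.65 in the shortest to -2.43 in the longest transcripts.

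Genes of the ER followed their class. Of 35 genes of the translocon, its partners and the folding enzymes of the ER, 25 were at least 1.5 times lower and 0 higher (median -0.89). P4hb, a protein disulfide isomerase, had 99 UMIs in members and 3417 in comparison cells (log2 ratio -2.61). Sec61a1, the channel of the translocon, stood at -2.47, the lectin chaperone Canx at -2.27 and the chaperone Hspa5 (BiP) at -1.16. The short subunits of the same channel did not share this: Sec61g, with 2784 and 15237 UMIs, stood at 0.04, and Sec61b at -0.22. Neither did Serp1, the highest of the list at 0.041 with 399 and 2179 UMIs, although its annotated transcript has 4611 bases. A member kept 0.303 of the list's UMIs per cell.

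Of 34 genes of secreted, lysosomal and surface proteins, 26 were at least 1.5 times lower and 0 higher, with a median of -1.22. Low genes could pass the minimum through the comparison cells alone, and for these the passing already required a difference. Cdh1 passed in this way, with 8.83 CPM in members and 96.4 CPM in comparison cells. Among genes of at least 50 CPM the median of the list was -0.83. The laminin receptor Itga6 (-3.94), the transferrin receptor Tfrc (-3.25) and the integrin Itgb1 (-2.95) were low. The lysosomal proteins Ctsb (-1.88), a protease, and Lamp2 (-1.71), of the lysosomal membrane, were so as well. At the top stood the small interferon-induced membrane proteins Ifitm1 (-0.06) and Ifitm2 (0.27). The 8 genes of this list with transcripts above 3840 bases had a median of -3.01 and the other 26 one of -0.91.

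Messages of abundant cytosolic enzymes and complexes were the ones kept. Of 14 glycolysis genes, 11 were at least 1.5 times higher and 1 lower, with a median of 0.85. Pkm, pyruvate kinase, had a median of 24 UMIs in members (5 to 120) and 24 in comparison cells (1 to 179), a ratio of 1.08. Eno1, enolase, had medians of 14 (1 to 93) and 12 (0 to 108), a ratio of 1.18. Per cell these counts overlapped widely, although the members held fewer UMIs in all. Gapdh (1.07), Ldha (1.03) and Aldoa (0.89) were alike. Hk2, hexokinase, the enzyme of the first step and an mRNA of 5513 bases, went the other way with 240 and 4121 UMIs (-1.61). The list's UMIs per member were 0.929 of those per comparison cell.

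The proteasome, which degrades ubiquitin-tagged proteins, showed the highest list median. Of 36 subunit genes 28 were at least 1.5 times higher and 0 lower (median 0.94). In cells of 5000 to 15000 UMIs its median was 0.64, below that of tubulins (0.73). At 5000 to 10000 UMIs its median level was 12723 CPM in members and 10715 CPM in comparison cells. The ATPase Psmc5 (1.34) and the deubiquitinase Psmd14 (1.31) led, and the immunoproteasome subunit Psmb10 (-0.37) was lowest. Of 23 cytosolic chaperones 15 were higher by that factor and 1 lower (median 0.70), among them the chaperonin subunits Cct8 (1.31) and Cct5 (1.24). All 10 tubulin genes lay above 0 (median 0.92), with Tubb4b at 1.25 and Tuba1b at 0.86. Tubulin copies are alike in sequence, and shared reads could move between them.

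Among translation factors, 11 of 26 were at least 1.5 times higher and 2 lower (median 0.45). Eef1d, an exchange factor of elongation, stood at 1.15, while the poly(A)-binding protein gene Pabpc1 (-0.99) and Eif3a (-0.88), the largest subunit of eIF3, were lowest. The 84 cytosolic ribosomal protein genes kept their share of the total most closely. Their median was -0.03, or 0.09 when scaled by the median of ratios, and 1 of them was higher and 1 lower by a factor of 1.5. The range ran from Rps27 (-0.68) and Rps29 (-0.58) to Rpl7l1 (0.65), a paralog of Rpl7. Per cell they stood at 0.446 of the comparison cells, near the ratio of total UMIs.

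The nuclear-encoded part of the mitochondrion was not low with the mitochondrial mRNAs. Of 77 respiratory chain genes 17 (22.1%) were at least 1.5 times higher and 2 (2.60%) lower (median 0.17). Over all genes the shares were 15.5% and 34%. The list ran from Cox6a1 (-0.85), a small oxidase subunit, to Uqcrc2 (1.05), a core protein of complex III. Of 75 mitochondrial ribosomal protein genes 19 were higher and 0 lower (median 0.32), with Mrpl39 (1.40) and Mrpl1 (1.21) at the top and Mrpl57 (-0.50) at the bottom. Import and matrix proteins had a median of 0.29 over 34 genes. The outer membrane channel Vdac1 (0.98) and the matrix enzyme Mdh2 (0.97) were highest, and the import receptor Tomm20 stood at -0.42. The plot of the lists shows these lists to the right of the all-gene median, and the RNAs of nucleus and ER to the left.

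Chromatin regulators were mostly low, and split by transcript length. Of 27 chromatin regulators 21 were at least 1.5 times lower (median -1.13). The remodeler subunit Arid1a stood at -2.35 and the PRC2 subunit Suz12 at -2.69, while the PRC2 subunits Eed and Ezh2 stood at 0.39 and 0.32 and the methyltransferase cofactor Dnmt3l at 0.48, short of the factor of 1.5. The 22 with transcripts above 3840 bases had a median of -1.34 and the other 5, a small set, one of 0.32. Not every list split in this way. The 10 mitochondrial ribosomal protein genes above 3840 bases had a median of 0.47 and the other 65 one of 0.29. For cytosolic chaperones the medians were 0.697 for 3 long ones and 0.698 for the other 20. Of 25 spliceosomal snRNP proteins 7 (28%) were higher and 1 (4%) lower by a factor of 1.5 (median 0.29). Over all genes the shares were 15.5% and 34%.

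Of 23 pluripotency genes 4 (17.4%) were at least 1.5 times higher and 11 (47.8%) lower (median -0.44, summed level 0.13). Over all genes the shares were 15.5% and 34%, so the higher share was near that of all genes. Sox2, a core factor, had a median of 0 UMIs in members (0 to 11; 163 of 238 at 0) and 5 in comparison cells (0 to 22), a ratio of -2.17. Esrrb (-2.29) and Klf4 (-1.43), factors of the naive state, and the RNA-binding protein Lin28a (-2.08) were lower as well. Nanog (1.08) and Dppa2 (1.46) were higher, and Pou5f1 stood at 0.50, short of the factor of 1.5. The list gives no single direction. The summed lineage lists stayed at medians of 0 or 1 UMI a cell on both sides. For endoderm and fibroblasts this was partly fixed by the choice of cells.

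The actin cytoskeleton, a known target of SRF, also split, with 11 of 32 genes higher and 8 lower by a factor of 1.5 (median 0.30), where 15.5% and 34% of all genes were. In cells of 5000 to 15000 UMIs the median was -0.02. The mRNAs of filamin, Flna (-2.37), the crosslinker Actn4 (-1.90) and the myosin Myh9 (-1.24) were low. The actins Actb and Actg1 stood at 0.58 and 0.71 and the Arp2/3 subunit Arpc3 at 1.09. The 3 with transcripts above 3840 bases had a median of -1.71 and the other 29 one of 0.37. Immediate early genes had a median of -0.33 over 9 genes, with Jun (-2.48) and Jund (-2.01) lowest and Ier2 at 0.12. This median ranged from -1.14 with endoderm and fibroblast cells kept to -0.11 at 50 CPM.

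Genes of stress and death gave no uniform picture. Of 16 p53 targets and apoptosis genes 7 (43.8%) were lower and 1 (6.25%) higher by a factor of 1.5. Over all genes the shares were 34% and 15.5%. The median of the list was -0.51, or -0.12 at 50 CPM. The short-lived survival factor mRNA Mcl1 (-1.97) and the cell-cycle inhibitor Cdkn1a (-1.29) were low, Bax, an effector of apoptosis, stood at 0.05 and Trp53 itself at 1.03. Genes of the integrated and oxidative stress responses had a median of -0.06, or 0.06 when scaled by the median of ratios. Asparagine synthetase, Asns, stood at 1.23 and Txnip, a thioredoxin inhibitor, at -1.11. In the cell cycle lists, the anaphase activator Cdc20 (1.27), the kinase Cdk1 (1.25, annotated at 4375 bases) and the reductase subunit Rrm2 (1.06) were high. The mRNAs of Cenpf (-2.18), a kinetochore protein, and Top2a (-2.05), a topoisomerase, were low. The medians were 0.21 for 30 genes of S phase and 0.09 for 34 of G2/M, the latter 0.55 at 50 CPM.

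Along the mitochondrial share the lists did not all change at 1%. Median Malat1 was 1 UMI in each of the 3 bins under 1% and 2 UMIs in the 53 cells of 1 to 2%, then 161.5 in the 230 cells of 2 to 4% and 212 in the 354 cells above. Glycolysis had 14618 CPM below 0.25%, 12174 CPM from 0.5 to 1%, 12654 CPM from 1 to 2%, and 5634 CPM from 4 to 10%. The proteasome went from 12634 to 5812 CPM over the same span, and genes of secreted, lysosomal and surface proteins the other way, from 2318 to 5043 CPM. The median share of transcripts above 3840 bases was 5.70% below 0.25%, 6.63% at 1 to 2% and 10.6% above 4%. The profile of levels along the share shows cells of 1 to 2% between the neighbouring bins in most lines. Glycolysis and summed Malat1 were exceptions. Summed Malat1 was 5154 CPM from 0.5 to 1% and 4615 CPM from 1 to 2%.

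**Figure D4:**
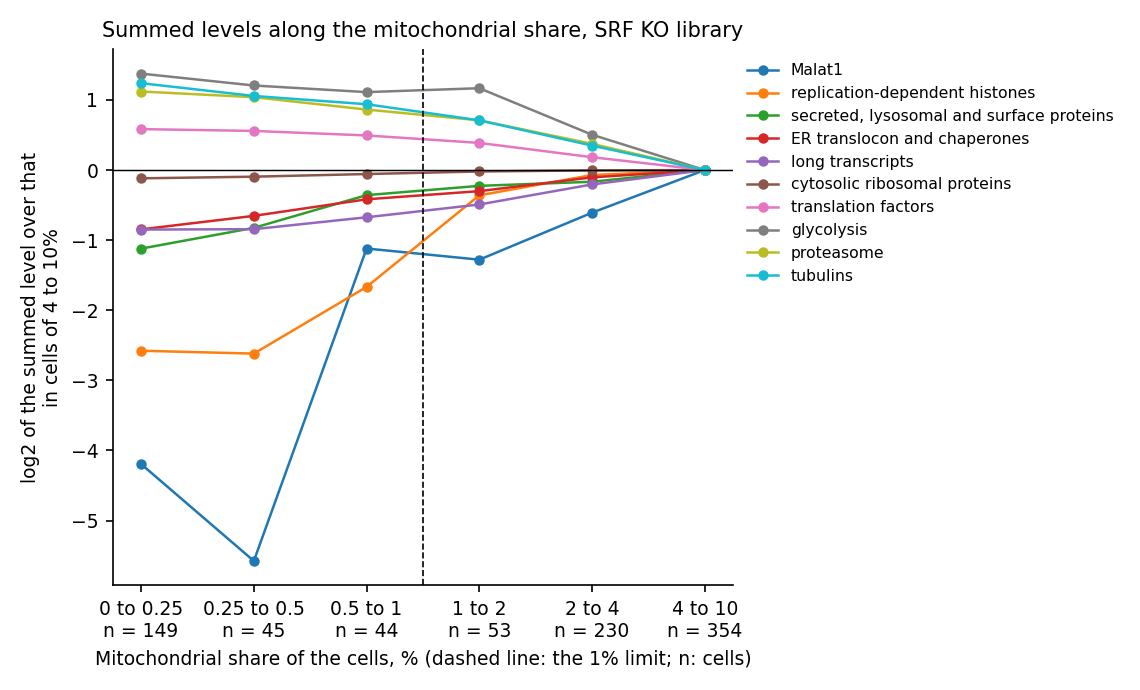
Log2 of the summed level of Malat1, of long transcripts and of 8 gene lists, relative to cells of 4 to 10% (vertical), in 6 bins of the mitochondrial share in percent (horizontal, n cells below each), knockout library. Glycolysis, proteasome, tubulins and translation factors lie above 0 at low shares, ribosomal proteins near 0, and the remaining lines below it, with Malat1 uneven.

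Depth moved with the choice of cells, so both sides were also set side by side at like depth. At 5000 to 10000 UMIs, 135 members had a median of 0 Malat1 UMIs, 5.80% long transcripts and 14127 CPM of glycolysis. The 56 comparison cells there had 1 UMI, 6.56% and 10260 CPM. Their median level of secreted, lysosomal and surface genes was 4163 CPM, against 2464 CPM in those members and 4576 CPM in comparison cells of at least 20000 UMIs. At 10000 to 20000 UMIs, 53 members had a median of 1 Malat1 UMI and 130 comparison cells 122.5. At 20000 UMIs or more, 33 members had medians of 2 UMIs, 5.82% and 12566 CPM, and 444 comparison cells 222 UMIs, 9.75% and 5934 CPM. In these measures deep members were near shallow ones, while shallow comparison cells were near the members in Malat1 and long transcripts, between the groups in glycolysis and near the deep comparison cells in surface genes. Another feature, a raised share of chromosome 8 in the UMIs (over 1.2 times the wild-type median), was seen in 95 members (39.9%) and 306 comparison cells (48.0%). In the wild-type library 0 of 16 cells under 1% and 88 of 890 cells of 1 to 10% (9.89%) had it.

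The 16 wild-type cells under 1% gave a different sum and a partly similar cell. Their Malat1 median was 8.5 UMIs (0 to 1291) against 130 in the other 890 cells, 6 of 16 had at most 2 UMIs, and the summed log2 ratio was 0.77. The median share of long transcripts was 6.30% against 8.90%, and the median glycolysis level 12574 against 7264 CPM. The median log2 ratios of coding genes by length quartile, however, were 0.08, 0.33, 0.09 and -0.09, and hydrophobic segments made no step (0.11 with none, 0.09 with both). Whether the libraries differ in these ratios was not tested.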

How the data were processed

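The deposited values were raw counts, whole numbers of UMIs for every gene in every cell, stored as integer matrices per the file headers. The submitters' processing notes name Cell Ranger 2.0.0, Seurat 3.1.1 and the build mm10, and their settings are not given in the sources used here. The members and gene lists were chosen with earlier results of these data known. Counts were summed over the cells of each side, and genes encoded by mitochondria were kept out of the totals (Python 3.11.15, numpy 2.4.6, scipy 1.17.1, pandas 2.3.3). Ratio intervals are conditional on the total of both sums. The ratios and their intervals were checked on simulated counts drawn without differences between cells. That check does not cover sums held mostly by a few cells, as for Malat1. Lists used genes of at least 10 CPM (mean of both sides), which low genes could reach through the comparison cells alone. Named were the 15 highest and 15 lowest genes of at least 50 CPM, the 2 highest and 2 lowest of each list, all 13 mitochondrial genes, Srf and Malat1. Other genes were named after their values were seen. Some genes that this rule names are not reported here. Of 27998 genes, 27645 (98.7%) matched GENCODE M21 by identifier. Of several transcripts, that with the longest coding sequence was used. Scrublet ran in scanpy 1.11.5, at an assumed 0.8% doublets per 1000 cells. Knockout sums were 2718839 UMIs in members and 15261979 in comparison cells. Alternatives changed the scaling, gene minimum, cell limits and cells kept.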

Additional observations from a re-analysis of the deposited data

Results flagged for a closer look

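The nuclear-retained noncoding RNAs as a sum went opposite ways in the libraries, and this flagged them. In cells under 1% mitochondrial UMIs, relative to cells of 1 to 10%, their log2 ratio was -2.61 in the knockout library (238 cells under 1%) and 0.749 in the wild-type library (16 cells). The difference was not tested, as each library is 1 sample. Both sums consist mostly of Malat1, and in the wild-type library 10 of the 16 cells held 2948 of 2953 Malat1 UMIs. A single one of them held 1291. By cell, the median Malat1 level was lower under 1% in both libraries. It was 48.5 against 7487 CPM in the knockout library and 835 against 5417 CPM in the wild-type library.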

How the results depend on the processing

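No paired analysis was possible because there is only 1 library of each genotype. Of 1857 recomputed values, 1575 moved by no more than 0.1 on the log2 scale, the mean distance of a ratio from its interval bounds where that is larger, or, for counts of genes, a factor of 1.5. The rest moved further. Of 1807 recomputed log2 ratios, 26 changed sign, in 12 results, mostly near 0: the all-gene median (0.19 at 50 CPM), the medians of ribosomal proteins, actin, stress genes and other histones, and the genes Serp1, Sec61g, Ifitm1, Ifitm2, Hspa4, Dusp1 and Vim. Only Vim, a fibroblast marker, was past a factor of 1.5 at first, at 0.82 (log2), and was -0.46 in cells of 5000 to 15000 UMIs and -0.83 with endoderm and fibroblast cells kept. The cause was not tested, here or below. Scaling by the median of ratios gave Malat1 -2.53, and medians of -2.79 for nuclear-retained RNAs, 0.0889 for ribosomal proteins, 0.29 for the respiratory chain, 0.41 for import, -0.77 for the ER, -1.09 for surface proteins, 0.97 for glycolysis and -0.32 for pluripotency, with 373 genes at least 2 times higher. Weighing each cell alike gave Malat1 -3.79, nuclear-retained -3.96, ER -0.9996 and surface -1.45. With members under 0.5% their share was 23.3%, their mitochondrial UMIs 0.161%, Malat1 -4.13, nuclear-retained -4.53, ER -1.04 and surface -1.57. In cells of 5000 to 15000 UMIs the share was 63.1%, the UMI ratio 0.889, mitochondrial UMIs 0.251%, Malat1 -4.87, nuclear-retained -4.87, surface -1.84, glycolysis 0.66 and pluripotency -0.32, with 132 genes higher. With at least 2000 genes a cell these were 18.1%, 0.625, 0.310%, -2.34, -2.57 and, for surface proteins, -1.03. At 50 CPM nuclear-retained RNAs were -1.91, surface -0.83 and pluripotency -0.29, with 125 genes higher and 204 lower. At 1 CPM nuclear-retained RNAs were -2.65, with 422 higher and 4100 lower. With endoderm and fibroblast cells kept, nuclear-retained RNAs were -3.19, surface -1.47 and pluripotency -0.32. In cells with the usual chromosome 8 share these were -2.79, -1.40 and -0.62, and glycolysis 0.97. Without the 10 members richest in Malat1, an alternative added after seeing the data, mitochondrial UMIs were 0.248%, Malat1 -5.58, nuclear-retained RNAs -5.71, ER -1.02, surface -1.48 and pluripotency -0.59. Genes of few UMIs have wide intervals, and with 1 library per genotype no value has a replicate check.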

Other observations

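Macrophage genes were at low levels in both libraries. The 11 genes summed to 8.09 CPM in members and 86.8 CPM in knockout comparison cells, and to 24.6 and 38.7 CPM in wild-type cells under 1% and of 1 to 10%. In the knockout library Lyz2, a lysozyme, had 4 and 568 UMIs. One comparison cell held 654 UMIs of the list, and no member held more than 2, with 219 of 238 at 0. A list of genes of the 2-cell embryo had 18 UMIs in 1 member, among them 13 of Tcstv1, and the other 237 members had 0.
Across the 238 members, the share of long transcripts and the glycolysis level had a Spearman's rho of -0.33, and Malat1 and total UMIs one of 0.05. These values share the same cells and totals and are descriptions.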
